A study of Mus musculus with 5 samples.

Results

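The miRNAs numbered miR-6896 to miR-7094 are a block of late entries in the miRNA registry that holds mostly predicted mouse mirtrons. They were chosen by name alone, as every listed mature miRNA, on either arm, whose name is mmu-miR-N with N from that of miR-6896 to that of miR-7094. The rule found 232 mature miRNAs of 1105 in the table, under 197 different numbers. Of the 232, 196 were 5p arms and 36 were 3p arms. A further 6 names in this number range carry a letter or a copy number. They were counted with the other miRNAs, and 0 of them had a read.

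The libraries came from OP9 cells, a stromal line of mouse origin used to model adipocyte formation, which the labels call a mesenchymal stem cell. All libraries were made at day 10 of adipogenic differentiation with 1 µM rosiglitazone, an agonist of the fat-cell regulator PPARγ. The knockout group held 2 libraries labelled Drosha KO, and the control group held 3 libraries labelled Empty vector with the genotype given as WT. Small RNA libraries do not measure the Drosha transcript, so the knockout itself was not checked on its own message. The labels do not say how many clones the knockout represents or whether replicates were separate cultures, so a p-value here speaks only to how these libraries vary, and that variation may be technical.

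A mirtron is a short hairpin that lies in an intron and is cut out by the spliceosome instead of by Drosha, the nuclear RNase III enzyme that trims ordinary primary miRNA transcripts. In the simplest form the hairpin is the whole intron. In 5′-tailed mirtrons, which are common in mammals, only the 3′ end of the hairpin is made by splicing, at the 3′ splice site (the acceptor), and the tail on the other side is removed by other nucleases. Both kinds are then cut by Dicer, and an arm is loaded into Argonaute. Most mammalian mirtrons are scarce, and few have a known function.

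The hairpins were compared with the label of mirtron type. As a mirtron is defined by its place at an intron end, a match describes these predicted entries and is no independent check. RefSeq on GRCm38.p6 held the mature sequence of 198 of the 232 members. It held 176 hairpins under their numbers, some of which gave a mature entry for the other arm only, and 25 members had no hairpin there. Set against GENCODE M21 gene models of the same build, 176 of 176 hairpins overlapped an annotated intron on their own strand, and 175 of those introns belonged to protein-coding genes. The last base of the hairpin was the last base of an annotated intron for 164 of 176 hairpins (93.2%), compared with 20 of 628 hairpins (3.18%) of the other miRNAs in the table. In 11 of the 176 the hairpin was exactly the whole intron. The hairpins had a median length of 66 bases, with a range of 52 to 137, and the host introns a median length of 472 bases. Of the member hairpins 93.8% ended in the letters AG, compared with 10.2% of the other hairpins. These letters were read on the RNA strand only, and a match does not show a used splice site.

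The hairpins below show both arrangements, in RNA letters 5′ to 3′ with the mature arm that carried reads in capitals. They were chosen because their arms had among the most reads in the knockout libraries or lie exactly at a splice site. The last entry is shown because its hairpin does not stop at the acceptor.
miR-7091 (whole intron of Dnase1l1): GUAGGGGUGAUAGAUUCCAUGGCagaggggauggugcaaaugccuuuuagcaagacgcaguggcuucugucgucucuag
miR-6978 (acceptor end of an intron of C3): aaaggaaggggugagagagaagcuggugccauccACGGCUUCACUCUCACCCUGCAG
miR-6990 (acceptor end of an intron of Esrra): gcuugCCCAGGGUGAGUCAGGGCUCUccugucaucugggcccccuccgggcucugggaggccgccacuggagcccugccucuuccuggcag
miR-7009 (acceptor end of an intron of Anxa5): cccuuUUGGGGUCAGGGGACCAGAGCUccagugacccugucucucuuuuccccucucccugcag
miR-6901 (reaches past the acceptor of an intron of Sned1): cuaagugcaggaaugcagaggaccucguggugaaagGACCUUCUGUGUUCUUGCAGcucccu

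On GRCm38, Mir7091 lies on the minus strand of chromosome X at 74274027 to 74274105, and its 79 bases are the whole intron of Dnase1l1, a gene of the DNase I family. Mir6978 lies on the minus strand of chromosome 17 at 57217172 to 57217228, at the acceptor end of a 94-base intron of C3, which encodes complement component C3. Mir6990 lies on the minus strand of chromosome 19 at 6914196 to 6914286, at the end of a 5867-base intron of Esrra, which encodes the nuclear receptor ERRα. Mir7009 lies on the minus strand of chromosome 3 at 36475461 to 36475524, in a 112-base intron of Anxa5, which encodes the phospholipid-binding protein annexin A5. Mir6901 lies on the plus strand of chromosome 1 at 93274549 to 93274610, and its hairpin runs 6 bases beyond the end of an intron of Sned1, although the 3p arm itself stops at the acceptor.

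The mature sequences that reached the expression filter and have a RefSeq entry are given next with the seed, bases 2 to 8, in capitals, because the seed sets which messages a miRNA can pair with.
miR-6990-5p: cCCAGGGUgagucagggcucu
miR-6933-5p: uGGCGGCAgucaggauaccugu
miR-6959-5p: uGGGAAACcugugucgggcugug
miR-7009-5p: uUGGGGUCaggggaccagagcu
miR-7013-5p: uAUGAAGAggccaguguuguag
miR-7024-5p: uUGGGGGAuggguugcuuggc
miR-7091-5p: gUAGGGGUgauagauuccauggc
miR-6978-3p: aCGGCUUCacucucacccugcag
miR-6901-3p: gACCUUCUguguucuugcag

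No seed was shared among these. Over all 198 members with a sequence there were 177 seeds, and 159 members had a seed that no other member had. miR-6967-5p and miR-7016-5p shared a seed and both had reads. The 5p arms were rich in G, with a median of 44.0% G compared with 27.3% in the other 5p arms of the table, and 62 of 167 held GGGG on the RNA strand (37.1%, compared with 11.4% of the other 5p arms). The 3p arms had a median of 14.3% G, 0 of 31 held GGGG, and 22 of 31 ended in CAG (71.0%, compared with 5.71% of the other 3p arms).

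The values were deposited as TPM, reads divided by a length and scaled to the same sum in every library, so each level below is relative to all listed miRNAs. Whole reads could be recovered from them. With 1 precursor per mature miRNA the libraries held 214264 and 200659 reads in the knockout group against 1613590, 1466825 and 1347800 in the controls. A single read of a 22-base miRNA came to 3.32 and 3.67 TPM in the knockout libraries and to 0.448 to 0.528 TPM in the controls. A value of 0 therefore leaves room for up to 3 reads, which is 9.95 and 11.0 TPM for the knockout libraries and 1.34 to 1.58 TPM for the controls. These floors and the intervals below cover counting error only. As a check of the labelled cell type, 6 of 6 listed mesenchymal marker miRNAs had reads, at a summed 24685 to 33047 TPM in the knockout and 17125 to 18786 TPM in the controls. The muscle and endothelial lists were at 0 in every library, the epithelial list at 0 to 7.33 TPM in the knockout and 3.49 to 4.03 TPM in the controls, and the neural list (miR-9-5p, with miR-124-5p at 0) at 3.51 to 9.52 and 14.6 to 15.6 TPM. The haematopoietic list, with miR-142a-5p, miR-144-5p and miR-223-5p at 0, was at 19.9 and 73.3 TPM in the knockout and 11.5 to 18.5 TPM in the controls, and the liver miRNA miR-122-5p at 25.7 to 36.5 and 5.28 to 12.0 TPM. The muscle, endothelial, epithelial and neural lists held only 5p arms. Values of 0 there do not speak to the 3p arms and are a weak check of cell type. The part of these lists in the results below was not tested. In bulk libraries, fewer cells that make a miRNA and less of it per cell cannot be told apart.

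Taken as a sum, the members were about 6 times as abundant in both knockout libraries as in the controls. Their summed level was 419 and 516 TPM in the knockout libraries against 67.3, 74.9 and 70.9 TPM in the controls. The groups did not overlap, and the gap was far wider than the spread within either group. The means were 467 ± 68.7 TPM (SD, n = 2) and 71.0 ± 3.78 TPM (SD, n = 3), a 6.58-fold difference (two-sided exact permutation p = 0.2, the smallest that 2 libraries against 3 can give). Both arms took part. The 5p arms summed to 357 ± 36.5 against 51.2 ± 3.65 TPM and the 3p arms to 110 ± 32.2 against 19.8 ± 1.41 TPM (SD, n = 2 and n = 3).

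In reads the same comparison looked different, and the knockout libraries were the shallower ones. The members had 125 and 140 reads in the knockout libraries against 147, 148 and 132 in the controls, so nearly the same number of reads stood in totals that differed 7-fold on average (207462 and 1476070 reads, a ratio of 0.141). As a share of reads this was 0.0583% (95% Wilson interval 0.0490 to 0.0695%) and 0.0698% (0.0591 to 0.0823%) in the knockout libraries. It was 0.00911% (0.00775 to 0.0107%), 0.0101% (0.00859 to 0.0119%) and 0.00979% (0.00826 to 0.0116%) in the controls. The intervals of the knockout libraries lay above those of the empty-vector libraries.

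**Figure D1:**
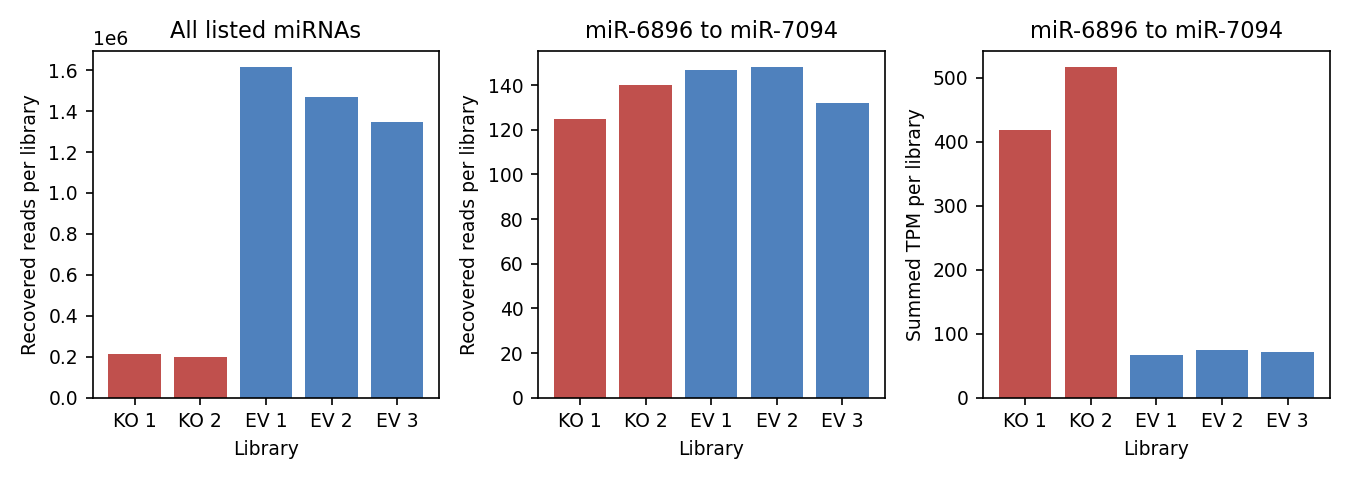
Bars give 1 library each (red, knockout; blue, empty vector): recovered reads of all listed miRNAs on the left, recovered reads of miR-6896 to miR-7094 in the middle and their summed TPM on the right. The members had 125 to 148 reads in each library, while their summed TPM was 419 and 516 in the knockout and 67.3 to 74.9 in the controls.

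Other scarce miRNAs did not move as far. The 745 non-members with a mean under 40 TPM, a limit that all members also met, summed to 1539 ± 88.2 TPM in the knockout against 1130 ± 56.8 TPM in the controls (SD, n = 2 and n = 3), which is 1.36 times as much. On the log2 scale the members' sum per sum of these miRNAs was -1.82 and -1.63 in the knockout libraries against -4.02, -4.00 and -3.95 in the controls, a difference of 2.27 (two-sided exact permutation p = 0.2, the smallest possible). Among these, 284 registry numbers of 5000 or more that lie outside the block differed 2.20-fold, at 211 ± 61.3 against 95.8 ± 11.4 TPM (SD, n = 2 and n = 3). The log2 ratio of the members to them differed by 1.60 between the groups, with both knockout libraries above every empty-vector library (exact permutation p = 0.2). Without the limit, all 285 were at 1743 ± 1132 against 353 ± 146 TPM (SD, n = 2 and n = 3), a 4.94-fold difference. The members' log2 ratio to these was -1.17 and -2.30 in the knockout against -2.77, -1.31 and -2.55 in the controls. Here the groups overlapped (difference 0.47, exact permutation p = 0.4).

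The members' sum rose less than that of better-known spliced mirtrons, while its ratio to miR-484 did not separate the groups. All 5 tested miRNAs of a list of 9 known to be made without Drosha, miR-484, miR-877-5p, miR-1981-5p, miR-3102-5p.2-5p and miR-1839-5p, rose (limma with Benjamini-Hochberg adjustment, BH; log2 changes of 1.17 to 4.50). The spliced mirtrons miR-877, miR-1981 and miR-3102 together were at 5828 ± 832 against 635 ± 19.3 TPM (SD, n = 2 and n = 3), 9.18-fold higher. The log2 ratio of the members to these mirtrons was -3.65 and -3.64 in the knockout libraries against -3.28, -3.08 and -3.12 in the controls, lower by 0.48 in the mean and without overlap (exact permutation p = 0.2). To miR-484, a capped hairpin that needs neither Drosha nor splicing, the log2 ratio was -5.69 and -5.35 in the knockout and -5.76, -5.56 and -6.17 in the controls. Here the groups overlapped (difference 0.31, exact permutation p = 0.4).

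The number of members with a read also depended on depth. Reads were found for 88 of the 232 members in at least 1 library (37.9%, compared with 383 of 873 or 43.9% of the other miRNAs). Members with reads numbered 47 and 41 in the knockout libraries against 35, 40 and 40 in the controls, 44.0 ± 4.24 against 38.3 ± 2.89 (SD, n = 2 and n = 3; exact permutation p = 0.2). For an equal depth of 200659 reads, the number obtained by rarefaction was 45.2 and 41.0 in the knockout libraries against 13.0, 14.0 and 13.7 in the controls. At that depth the knockout held about 3 times as many members (43.1 ± 2.97 against 13.6 ± 0.511; exact permutation p = 0.2). The other miRNAs with reads went from 244 and 246 as deposited to 241 and 246 at equal depth in the knockout. They went from 289, 291 and 293 to 219, 222 and 226 in the controls, a smaller drop in proportion than that of the members. These others include abundant miRNAs that a lower depth hardly removes, and no set of matched level was rarefied.

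**Figure D2:**
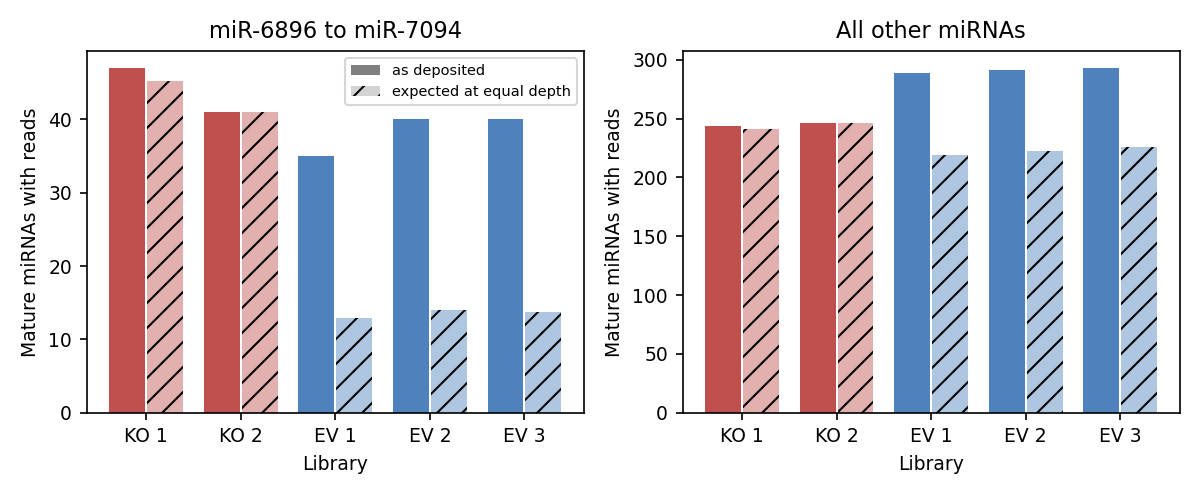
Numbers of mature miRNAs with reads in each library (red, knockout; blue, empty vector), as deposited (solid) and the rarefied number at 200659 reads (hatched), for miR-6896 to miR-7094 on the left and all other miRNAs on the right. At equal depth the members fall to 13.0 to 14.0 in the controls and stay at 41.0 and 45.2 in the knockout libraries.

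Most members stood on very few reads. Of the 88 with reads, 23 had 1 read in the whole study, 49 had 1 to 3 reads and 21 had 10 or more. Reads occurred in both groups for 44 members, in knockout libraries alone for 20 and in empty-vector libraries alone for 24. The 20 found only in the knockout held 39 reads in all, and 12 of them had 1 read. The 24 found only in the controls held 52 reads in all, at most 7 for any of them. No single miRNA carried the sum: the 5 most abundant members took 42.5% and 43.0% of the members' TPM in the knockout libraries against 40.4 to 43.2% in the controls. Without miR-6990-5p the members' share of TPM still differed 6.21-fold.

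The expression filter asked for a mean TPM of 5 or more across the libraries. It was met by 12 members and 193 other miRNAs, which were tested together with limma on log2(TPM + 1). Over the whole fit 57 miRNAs were higher in the knockout (27.8%) and 56 lower (27.3%), or 48 and 77 under TMM rescaling. Among the 12 members 10 were higher, where 24.4% of the non-members were, 0 were lower (0 also at an unadjusted p under 0.05) and 2 did not pass. These counts cannot be read as support, because 10 of the 12 had an empty-vector mean under 5 TPM and met the filter only through the knockout. The limma p-values given below for these 10 carry the same selection and are no support either. With the filter set on the empty-vector group alone, 2 members were tested and 1, miR-6990-5p, was higher, where 20.7% of all tested miRNAs and 20.4% of the non-members were higher and 29.3% of all were lower. Their median is left out for the same reason. With no filter on low values, the median log2 change of the 88 members with reads was 1.03, with 28 of them negative, and that of all miRNAs fitted was -0.17. The first equals the change of miR-7007-5p, with 1 read in knockout library 1 and none elsewhere. The second equals that of miR-7031-5p, with 1 read in empty-vector library 1. Both medians thus follow depth and give no size of a typical change. The direction of members depends on the scale: rescaled to equal miR-484, 0 members passed in limma, and miR-6901-3p, miR-6954-3p and miR-7042-5p turned negative.

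miR-6990-5p, from the Esrra intron, had the highest mean TPM of the members over the 5 libraries and in the knockout, while miR-6901-3p had the highest in the controls (8.57 TPM). miR-6990-5p was at 76.5 and 65.3 TPM in the knockout libraries against 3.29, 11.0 and 7.74 TPM in the controls. Both knockout values were several times the highest control value. The means of 70.9 ± 7.88 and 7.33 ± 3.86 TPM (SD, n = 2 and n = 3) differed 9.66-fold, with a log2 change of 3.23 (standard error, SE, 0.55, limma, BH-adjusted p = 4.31e-05).

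miR-6933-5p comes from an intron of Pgs1, which encodes an enzyme of cardiolipin synthesis. It was at 29.9 and 51.3 TPM in the knockout libraries against 7.17, 4.99 and 2.64 TPM in the controls, 8.23-fold higher without overlap. The fitted log2 change came to 2.84 (SE 0.60, limma, BH-adjusted p = 0.000526). The reads behind these values were 9 and 14 in the knockout and 16, 10 and 5 in the controls.

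miR-6978-3p, whose last base is the last base of the C3 intron, was at 31.7 and 24.6 TPM in the knockout libraries against 1.29, 1.91 and 1.51 TPM in the controls. The knockout values rested on 10 and 7 reads and the controls on 3, 4 and 3, and the groups were well apart, 17.9-fold in the mean. The fitted log2 change came to 3.50 (SE 0.70, limma, BH-adjusted p = 0.000297). The 5p arm of the same hairpin had 2 reads in empty-vector library 1 and none elsewhere.

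miR-6959-5p lies in an intron of Sbf1, which encodes a pseudophosphatase of the myotubularin family. It was at 19.0 and 31.6 TPM in the knockout libraries against 1.71, 0.477 and 1.51 TPM in the controls, 20.5-fold higher (log2 change 3.56, SE 0.75, limma, BH-adjusted p = 0.000471). All knockout values exceeded all control values, which rested on 4, 1 and 3 reads.

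miR-7009-5p, from the Anxa5 intron, was at 16.6 and 29.3 TPM in the knockout libraries against 1.34, 2.00 and 1.58 TPM in the controls. The groups were apart by 14.0-fold in the mean, with a log2 change of 3.14 (SE 0.72, limma, BH-adjusted p = 0.000926). miR-7013-5p, from an intron of the lipid kinase gene Pi4kb, was at 13.3 and 18.3 TPM in the knockout libraries, 2.69 TPM in empty-vector library 1 and 0 in the other two. It rose with a log2 change of 3.43 (SE 0.87, limma, BH-adjusted p = 0.00217), and its 6 control reads all came from that library, without which the log2 change was 4.05.

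miR-7024-5p, from an intron of Nelfa, which encodes a subunit of the negative elongation factor, was at 17.4 and 7.68 TPM in the knockout libraries against 2.35, 0 and 2.21 TPM in the controls. Its groups did not overlap, but the lower knockout value rested on 2 reads. The fitted log2 change came to 2.52 (SE 0.85, limma, BH-adjusted p = 0.0145). The call was lost without knockout library 1 (1.98) and without empty-vector library 1 (2.82) or 2 (1.95). It was also lost with no filter on low values (limma, BH-adjusted p = 0.061) and with a pseudocount of 0.1 TPM (limma, BH-adjusted p = 0.053).

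miR-7091-5p, the 5′ part of the Dnase1l1 intron, was at 3.17 and 31.6 TPM in the knockout libraries, from 1 and 9 reads, and at 0 in all 3 empty-vector libraries. The 2 knockout libraries were far apart, and the controls had no read. The knockout mean of 17.4 ± 20.1 TPM (SD, n = 2) was 12.3 times a floor of 3 reads in each empty-vector library. This is no lower bound of the change, because it takes as exact a knockout mean that rests on 1 and 9 reads. The fitted log2 change of 3.54 (SE 1.01, limma, BH-adjusted p = 0.00497) depends on the pseudocount and was 2.06 without knockout library 2 and 5.03 without knockout library 1.

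Among tested members with no RefSeq mature entry, miR-6900-3p was at 10.4 and 42.3 TPM in the knockout libraries against 4.69, 1.57 and 2.76 TPM in the controls. It was higher in both knockout libraries (log2 change 2.55, SE 0.72, limma, BH-adjusted p = 0.00497), but the call was lost without knockout library 2 (1.59), and without knockout library 1 the log2 change was 3.51. miR-6954-3p was at 13.9 and 15.4 against 3.75, 3.14 and 2.21 TPM, from 4 and 4 knockout reads and 8, 6 and 4 control reads. The fitted log2 change came to 1.97 (SE 0.70, limma, BH-adjusted p = 0.0201), and this call was lost without empty-vector library 1 (2.10), 2 (2.00) or 3 (1.82). It was also lost with no filter on low values (limma, BH-adjusted p = 0.0575).

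The other 2 tested members did not pass. miR-6901-3p was at 14.6 and 24.2 TPM in the knockout libraries against 6.41, 7.69 and 11.6 TPM in the controls, 2.26-fold apart without overlap (log2 change 1.09, SE 0.59, limma, BH-adjusted p = 0.114). It passed without knockout library 1 (1.43). miR-7042-5p, from an intron of Tatdn2, was at 20.9 and 3.84 TPM in the knockout libraries, from 6 reads and 1 read, and at 5.16, 5.23 and 4.42 TPM in the controls. Its knockout values lay on both sides of the controls, with a log2 change of 0.80 (SE 0.73, limma, BH-adjusted p = 0.338) that was -0.29 without knockout library 1 and past the threshold without knockout library 2 (1.88).

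**Figure D3:**
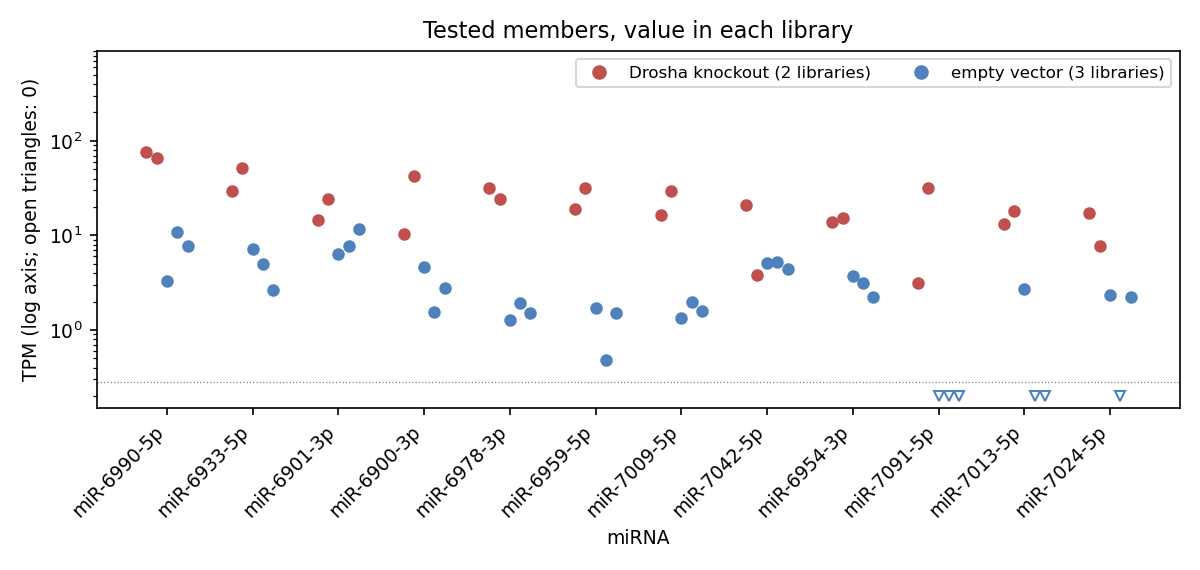
TPM on a log axis in each library for the 12 tested members, ordered by mean (red, knockout; blue, empty vector; open triangles, values of 0). The knockout values of miR-7042-5p, 20.9 and 3.84 TPM, lie on both sides of its control values, and 10 of the 12 members were tested only because of their knockout level.

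**Figure D4:**
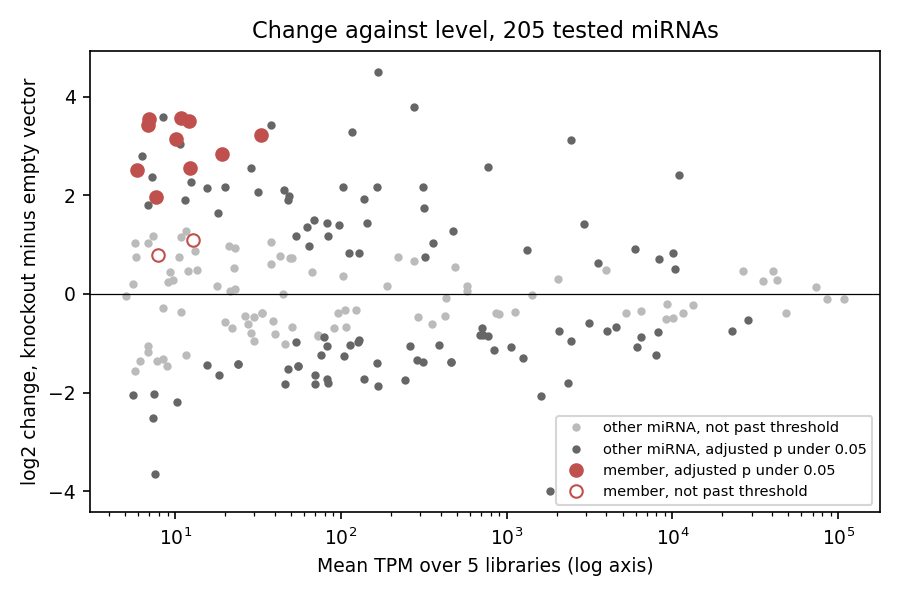
Log2 change, knockout minus empty vector on log2(TPM + 1), against mean TPM on a log axis for the tested miRNAs, with the 12 members in red (filled, adjusted p under 0.05). The members lie at means of 5.92 to 32.8 TPM and at log2 changes of 0.80 to 3.56.

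Below the filter nearly all knockout values lay under the level that a count of 0 allows, and reads are given in place of levels. miR-7033-5p, from an intron of the nuclear pore gene Pom121, had 3 and 2 reads in the knockout libraries against 6, 2 and 5 in the controls. miR-7037-5p, from the Integrator subunit gene Ints1, had 1 and 2 against 3, 7 and 2 reads. miR-6915-5p, from Ankrd52, had 1 and 2 against 2, 2 and 6 reads. These are the remaining members with reads in all 5 libraries, and in each the shallower knockout libraries had no more reads than most controls. As 1 read stands for more TPM in the knockout libraries, this does not show a lower level.

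miR-7002-5p, from the Aqr gene of a spliceosomal helicase, had 1 and 3 reads in the knockout and 5, 0 and 1 in the controls. miR-6985-5p, from the cofilin phosphatase gene Ssh3, had 0 and 4 against 6, 0 and 5 reads. miR-7068-5p, whose hairpin is the whole 74-base intron of Cherp, had 2 and 2 against 0, 1 and 0 reads. With miR-7091-5p it was the only member among the 11 whole-intron arms that had reads, and together they had 14 reads in the knockout and 1 in the controls.

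miR-7026-5p, from the chromatin remodeller gene Ep400, had 3 and 0 against 1, 1 and 0 reads. miR-7051-5p, from the electron transfer flavoprotein gene Etfb, had 1 and 2 against 0, 0 and 1. miR-7069-5p, from the phenylalanyl-tRNA synthetase gene Farsa, had 1 and 2 against 0, 2 and 0. In these 3 the knockout libraries held more reads in all than the deeper controls. miR-7057-3p, from Lrrk1, had 1 and 1 against 0, 0 and 1 reads, and miR-7017-5p, from the actin regulator gene Wasf2, had 1 and 1 against 1, 1 and 0.

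A smaller set had reads mainly in the controls. miR-6967-5p, listed for a pair of precursors with identical values, had 1 and 0 reads in the knockout and 2, 3 and 7 in the controls. miR-6936-3p, in an intron of the deacetylase gene Sirt7, had 0 and 1 against 2, 5 and 4, and miR-6904-5p, from Parp1, which encodes a DNA repair enzyme, had 1 and 0 against 3, 7 and 0. Their mean TPM differed by less than the spread within either group, at 1.74 ± 2.46 against 2.13 ± 1.54 for miR-6967-5p and 1.92 ± 2.72 against 1.92 ± 0.875 for miR-6936-3p (SD, n = 2 and n = 3). The hairpin of miR-6936 begins at the donor of its intron but stops 12 bases before the acceptor, and that of miR-6904 runs 7 bases past it.

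The other members with reads in at least 3 libraries had 1 read in the knockout group each. miR-7062-5p, from the metalloprotease gene Adam8, had 2, 4 and 3 reads in the controls, miR-7015-5p had 1, 4 and 2, and miR-7008-5p, from the kinase gene Prkci, had 1, 2 and 2. miR-6960-5p, from Troap, had 1, 1 and 1, miR-6905-5p, from the Mediator subunit gene Med23, had 0, 2 and 1, and miR-6984-5p, from the mitochondrial ribosome gene Mrpl21, had 0, 1 and 1. Single reads such as these give no estimate of a change. At the other end, miR-7038-5p (4 reads), miR-6913-5p (3 reads) and miR-7054-5p (2 reads) had reads in both knockout libraries and none in the controls, and were chosen for mention after their values were seen.

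Without any filter on low values, 471 miRNAs including 88 members could be fitted. Of the 88, 13 were higher in the knockout (14.8%, where 11.3% of all miRNAs fitted and 10.4% of the non-members were) and 0 were lower (0 also at an unadjusted p under 0.05, where 9.13% of all fitted passed as lower after BH adjustment in limma). The share of single members called higher was thus near the background. The 0 called lower says little, as members this scarce left hardly any room for such a call at the knockout depth. miR-7040-5p had the lowest log2 change, -0.90 (limma, unadjusted p = 0.17), with 0 and 0 knockout reads against 5, 2 and 0 in the controls. In 22 of 232 members both knockout libraries exceeded every empty-vector library (9.48%, compared with 9.41% of all listed miRNAs), and in 0 members both lay below (8.96% of all listed miRNAs). Counted over miRNAs with a read, they lay above for 22 of 88 members and for 22.1% of all, and 21% of all lay below. As 1 knockout read is worth more TPM than several control reads, this measure depends on depth.

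When members were grouped by the position of the hairpin, a grouping made after the levels were known and therefore given without a test, the arms of hairpins that end at the acceptor held most of the sum. A member with no mature entry was placed by the hairpin of its number, which was possible for 9. The 179 arms of hairpins with an acceptor end that are not a whole intron were at 349.7 and 363 TPM in the knockout libraries against 42.9, 50.04 and 48.6 TPM in the controls, a 7.55-fold difference. The 11 whole-intron arms were at 10.1 and 39.2 TPM and at 0, 0.523 and 0 TPM. The 17 arms of hairpins that do not end at an acceptor were at 28.0 and 46.4 TPM in the knockout and 13.3, 14.3 and 15.8 TPM in the controls, 2.57-fold higher. The 25 members with no RefSeq hairpin were at 31.0 and 67.6 TPM against 11.1, 10.03 and 6.51 TPM, 5.35-fold higher. In each of these groups both knockout values exceeded all control values. Within the group of 17, the 5 arms of hairpins that begin at the donor were at 6.79 and 3.84 TPM in the knockout. These 5 were at 4.67, 2.61 and 2.74 TPM in the controls, so their values overlapped. The group of 17 had only 20 knockout reads and 83 control reads. Of the latter, 47 were of miR-6901-3p, an arm that itself stops at the acceptor although its hairpin runs past it. The hairpins of miR-6904, miR-6925 and miR-7029 in this group also run past the acceptor, by 7 bases. Those of miR-6903 and miR-6914 run past it by 6 bases and that of miR-7010 by 1. The group is thus set by the annotated hairpin end and is not a set without acceptor ends.

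**Figure D5:**
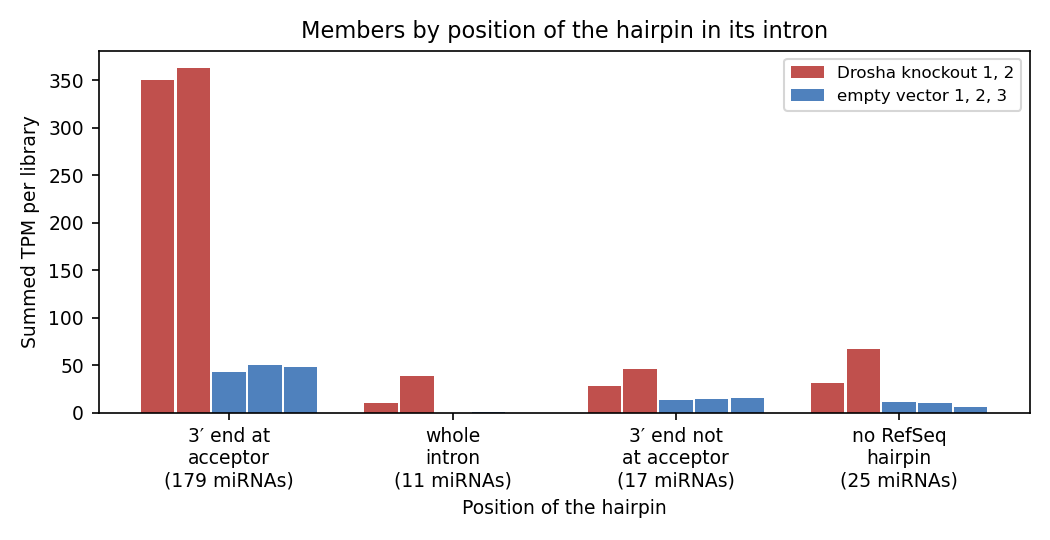
Summed TPM per library (red, knockout 1 and 2; blue, empty vector 1, 2 and 3) for members grouped by where the RefSeq hairpin lies in its GENCODE intron. Arms of hairpins that end at the acceptor reached 349.7 and 363 TPM in the knockout and 42.9 to 50.04 TPM in the controls.

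Both arms were listed for 35 numbers of the block. Reads fell on both arms for 7 of them, on the 5p arm alone for 4, on the 3p arm alone for 10 and on neither for 14. For miR-6900 the 3p arm had 14 knockout and 18 control reads, and the 5p arm had 2 reads in knockout library 2 and 2 in empty-vector library 2. Where a number was listed with its 5p arm alone, its 3p arm was not analysed here. The table gives neither the ends nor the lengths of the reads, so reads from a finished arm and from another fragment of the same intron cannot be told apart.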

How the data were processed

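Small RNA libraries were made with unique molecular identifiers and sequenced on DNBSEQ, per the labels' protocols. The authors deposited TPM values for pairs of a mature miRNA and a precursor. Bowtie2 2.5.1 and GRCm38 are named, without a role, per the submitters' processing notes. The sources used here do not name the counting tool, its filters or how identifiers were used. Of several pairs for 1 mature miRNA (the case for 3 members), the one of highest mean TPM was kept. Whole reads were recovered by searching for each pair a length of 15 to 30 bases at which every value is a whole number of reads within 1e-06. This held for 100% of 536 pairs with reads, and the length equalled the RefSeq mature length for 406 of 406 pairs with an entry, 80 of them members. For 6 pairs more than 1 length was possible.

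limma 3.58.1 in R 4.3.3 was run on log2(TPM + 1), its variance prior following a trend with the mean. It took miRNAs whose mean TPM was 5 or more, two-sided, with BH adjustment at 0.05. Fold changes on this scale understate those of low miRNAs, and folds in the text are ratios of mean TPM. The procedure was tested on simulated reads, with changes placed only on miRNAs more abundant than most tested members. That test does not cover the members' level. Sums, ratios and numbers per library were tested by exact permutation, two-sided. The correlation of log2 values was 0.956 between knockout libraries and 0.987 to 0.989 between empty-vector libraries, across miRNAs, which are not independent replicates. Members named with values were those with a mean of at least 5 TPM or reads in at least 3 libraries, 32 in all. The members and lists were chosen with earlier results of these data known.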

Additional observations from a re-analysis of the deposited data

How the results depend on the processing

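The members' summed share of TPM was 6.57 times as high in the knockout and kept its direction under every alternative tried. It was 5.98 to 7.15 when 1 library was left out and 6.21 to 6.63 with all listed pairs, recovered reads, the 10 most abundant miRNAs removed or miR-6990-5p removed. Alternatives chosen after seeing the data gave 4.97 for members with a mean under 5 TPM, 8.04 for hairpins that end at an acceptor, 6.57 with the 6 suffixed names and 1.23 per TPM of miR-484. The knockout held 5.67 more members with reads, 2.67 to 8.67 when 1 library was left out, 15.2 at the level of 2 knockout reads and 29.5 at equal depth.

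Counts of calls depended on scaling and filter. Rescaled to equal miR-484, which moved the median log2 change of all tested miRNAs to -2.43, 2 miRNAs were higher and 153 lower. No member passed in limma under that rescaling (0 higher, 0 lower by adjusted p), and miR-6901-3p (-1.14), miR-6954-3p (-0.099) and miR-7042-5p (-1.29) turned negative. miR-7042-5p was also negative without knockout library 1 (-0.29) and passed without library 2 (1.88). TMM moved the median to -0.34 and median of ratios to -0.16, and 10 members passed in both, where 48 and 51 of all tested miRNAs were higher, with the same filter met through the knockout. Of the members called higher 1 was left where the mean had to reach 20 TPM (1 member tested, and 39 miRNAs higher in all) and 1 with the filter on the empty-vector group (2 members tested, and 39 higher in all), and 8 to 10 when 1 library was left out. Over all miRNAs 39 to 55 were then higher and 34 to 52 lower. With the replicate number as a block, 5 members and 39 miRNAs in all were higher and 35 lower. The labels share only a number, and same-numbered libraries did not deviate together (correlations of -0.117 and -0.135). Depth limits members below about 10 TPM in the knockout.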
